A study of Homo sapiens with 15 samples.

Results

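The 7 genes RUNX1, RUNX2, RUNX3, CBFB, CBFA2T2, CBFA2T3 and RUNX1T1 encode the RUNX transcription factors, their common partner subunit and a family of corepressors. They were followed through 15 Affymetrix U133 Plus 2.0 arrays of 9 human lymphoid cell lines, using every probe set (a group of short probes that together give 1 signal) whose only annotated gene symbol was one of the 7. This rule found 24 of 41091 probe sets with a single symbol and 6 of the 19775 genes these represent. RUNX2 had 6 such probe sets, RUNX3 had 3, CBFB had 2, CBFA2T2 had 5, CBFA2T3 had 1 and RUNX1T1 had 7. RUNX1 had 0, because each of its 13 probe sets carries further gene symbols, so no RUNX1 value is given. Where 1 value per gene was needed, the probe set with the highest mean over the 15 arrays (the brightest) was taken.

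The Hodgkin group held HDLM2, KM-H2, L1236, L428, L540 and its relative L540Cy, all labelled as classical Hodgkin lymphoma (10 arrays). The non-Hodgkin group held Reh, from B cell acute lymphoblastic leukaemia, Namalwa, from Burkitt lymphoma, and SU-DHL-4, from a B cell non-Hodgkin lymphoma (5 arrays). The study deposited 2 biological replicates of 6 lines and 1 array each of L540, L540Cy and SU-DHL-4. No line carried a stated treatment or genetic change made for the study, and each line stands for 1 patient's tumour grown in culture. L540Cy is known as a subline of L540, so the pair was averaged and 5 Hodgkin lines of origin were set against 3 non-Hodgkin lines. By background knowledge that the labels do not give, HDLM2 and L540 stem from T cells and L428, L1236 and KM-H2 from B cells.

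RUNX proteins bind DNA through the Runt domain, and CBFB, which does not bind DNA itself, attaches to that domain and strengthens the binding. RUNX1 is needed for the formation of blood stem cells, RUNX2 for bone formation, and RUNX3 acts in T cell subsets, natural killer cells and B cells. CBFA2T2, CBFA2T3 and RUNX1T1 form the ETO family of corepressors, which bring histone deacetylases to DNA through other transcription factors; RUNX1T1 and CBFA2T3 are known as fusion partners of RUNX1 in leukaemia. RUNX genes are transcribed from a distal and a proximal promoter.

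Because RUNX factors are known to act on RUNX promoters, the 250 bases upstream of the RefSeq start sites (GRCh38.p14) were searched for the core RUNX word TGTGGT and its variant TGCGGT on both strands (ACCACA and ACCGCA when read on the opposite strand). Of the 7 genes, 5 had a start that could be used, with 7 starts in all. The distal starts of RUNX2 (chr6:45328080-45328329, plus strand) and RUNX3 (chr1:24965011-24965260, minus strand) are the ones with words, and their sequences are shown 5′ to 3′ on the gene's strand with the words in capitals.
RUNX2 distal: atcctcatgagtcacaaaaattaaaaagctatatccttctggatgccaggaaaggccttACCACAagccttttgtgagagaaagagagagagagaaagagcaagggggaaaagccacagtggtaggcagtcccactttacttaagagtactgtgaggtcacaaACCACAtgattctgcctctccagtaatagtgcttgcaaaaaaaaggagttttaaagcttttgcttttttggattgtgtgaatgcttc
RUNX3 distal: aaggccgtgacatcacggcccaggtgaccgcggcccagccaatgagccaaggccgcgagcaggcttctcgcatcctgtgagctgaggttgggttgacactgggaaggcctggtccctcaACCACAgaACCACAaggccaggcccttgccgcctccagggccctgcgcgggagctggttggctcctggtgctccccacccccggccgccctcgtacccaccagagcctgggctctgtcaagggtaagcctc
Each held 2 copies of ACCACA, at 191 to 186 and 87 to 82 bases before the start in RUNX2 and at 131 to 126 and 123 to 118 bases before it in RUNX3. The proximal starts of RUNX2 and RUNX3 and the starts used for RUNX1, CBFA2T2 and CBFA2T3 held 0 words. The starts used for RUNX1, CBFA2T2 and CBFA2T3 lay inside the annotated genes, and the bases upstream of their outermost ends were not searched. For RUNX1, on the minus strand, the bases searched were chr21:34888700-34888949, while the gene extends to 35049302. Over all 35116 starts in the table, 16.3% held either word, with TGTGGT in 11.0% and TGCGGT in 5.84%, and 1.63% held 2 or more words. A word is a match of letters and not a bound site, and the array values do not tell which start was used.

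The array medians lay between 5.501 and 5.568 on the deposited log2 scale, on which 1 unit is a doubling of signal. The SD of a single replicate array, taken from the replicate differences over all genes, was 0.17 to 0.26 log2 in the 4 duplicated Hodgkin lines. It was 0.37 in Namalwa and 0.44 in Reh. Summed levels of 5 B cell markers were 7.76 to 11.1 log2 in the Hodgkin arrays and 13.4 to 14.3 in the others, with CD79A and CD79B lower beyond the test used below. Summed levels of 4 Hodgkin and Reed-Sternberg cell markers were 12.7 to 15.5 against 7.68 to 8.56, and 3 of the 4 were higher. The 5 T cell markers overlapped (7.51 to 11.8 against 7.91 to 9.21), as did the 5 myeloid markers (7.28 to 9.58 against 7.26 to 7.78) and the 4 osteoblast markers (7.92 to 8.30 against 8.07 to 8.51). The 5 precursor B cell markers reached 14.2 and 15.1 in the Reh arrays and 12.1 and 13.1 in the Namalwa arrays, against 7.11 in SU-DHL-4 and 6.53 to 6.81 in the Hodgkin arrays. The B cell and Hodgkin markers move with every Hodgkin against non-Hodgkin difference reported here, and their part in it was not tested.

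The pair of arrays labelled Reh disagreed with one another, and among the member genes this touched RUNX3. SU-DHL-4 exceeded Reh replicate 2 by over 3 log2 in 265 genes. Reh replicate 1 did so too in 130 of them, against 1 of the other 19510 genes. Both differences subtract Reh replicate 2. A gene low in that array alone enters both counts, so part of this contrast is built in. In 22 genes SU-DHL-4 was over 3 log2 higher than every array but Reh replicate 1. Their median difference between Reh replicate 1 and replicate 2 was 3.9952 log2. RUNX3 was one of the 130 and not of the 22. Its SU-DHL-4 signal of 9.72 log2 lay within the range of the Hodgkin and Namalwa arrays. RUNX3 read 8.79 log2 in the first Reh replicate and 3.86 in the second, a gap of 4.93. A gap at least as large was seen in 38 genes, and in all 38 it was Reh replicate 1 that was higher. At the brightest probe sets of the other 5 measured members the Reh arrays differed by 0.37 log2 or less. Away from those, CBFB at 206788_s_at was 1.08 log2 and CBFA2T2 at 209145_s_at 0.61 log2 apart between them. RUNX3 results are therefore given with and without Reh replicate 1.

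**Figure D1:**
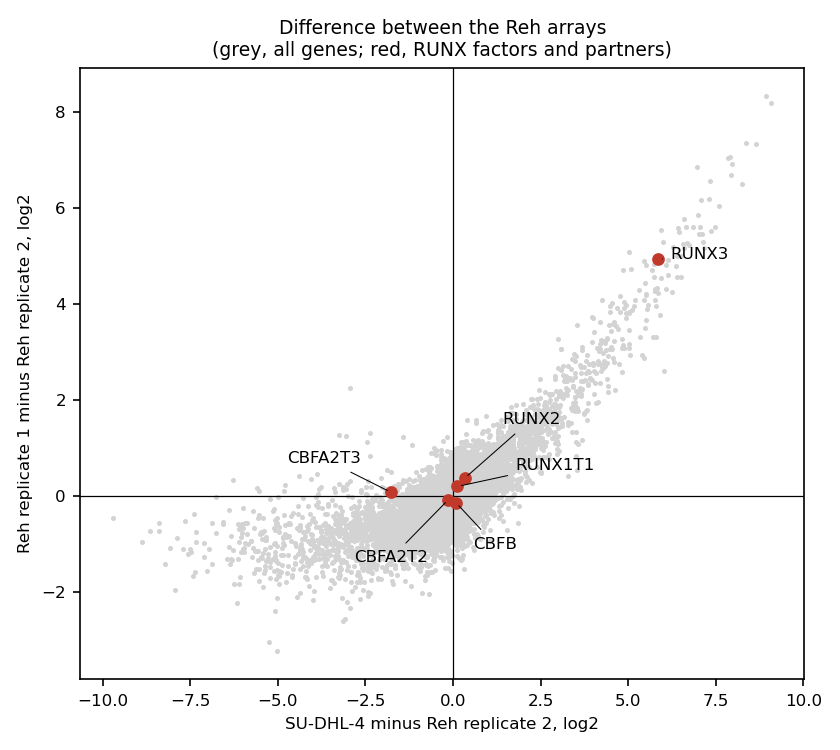
Difference between Reh replicate 1 and Reh replicate 2 (vertical axis, log2) against the difference between SU-DHL-4 and Reh replicate 2 (horizontal axis, log2) for all 19775 genes (grey), with the 6 measured RUNX factors and partners in red. Both axes subtract the same array. RUNX3 lies at 4.93 log2 on the vertical axis, among genes that are higher in SU-DHL-4 than in Reh replicate 2. Its SU-DHL-4 signal lay within the range of the Hodgkin and Namalwa arrays. The other 5 members, at their brightest probe sets, lie near 0 on the vertical axis.

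Hodgkin and non-Hodgkin lines were compared by limma on the line means, and a gene past a Benjamini-Hochberg adjusted p of 0.05 over all 19775 genes is said to be called. RUNX2 was called higher and CBFA2T3 called lower in the Hodgkin lines, and RUNX3, CBFB, CBFA2T2 and RUNX1T1 were not called. Of all genes, 0.759% were called higher and 0.612% lower. In a purely descriptive sorting, RUNX2 and CBFA2T3 were also the members without overlap between the line means of the groups, as were 10.7% of all genes.

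**Figure D2:**
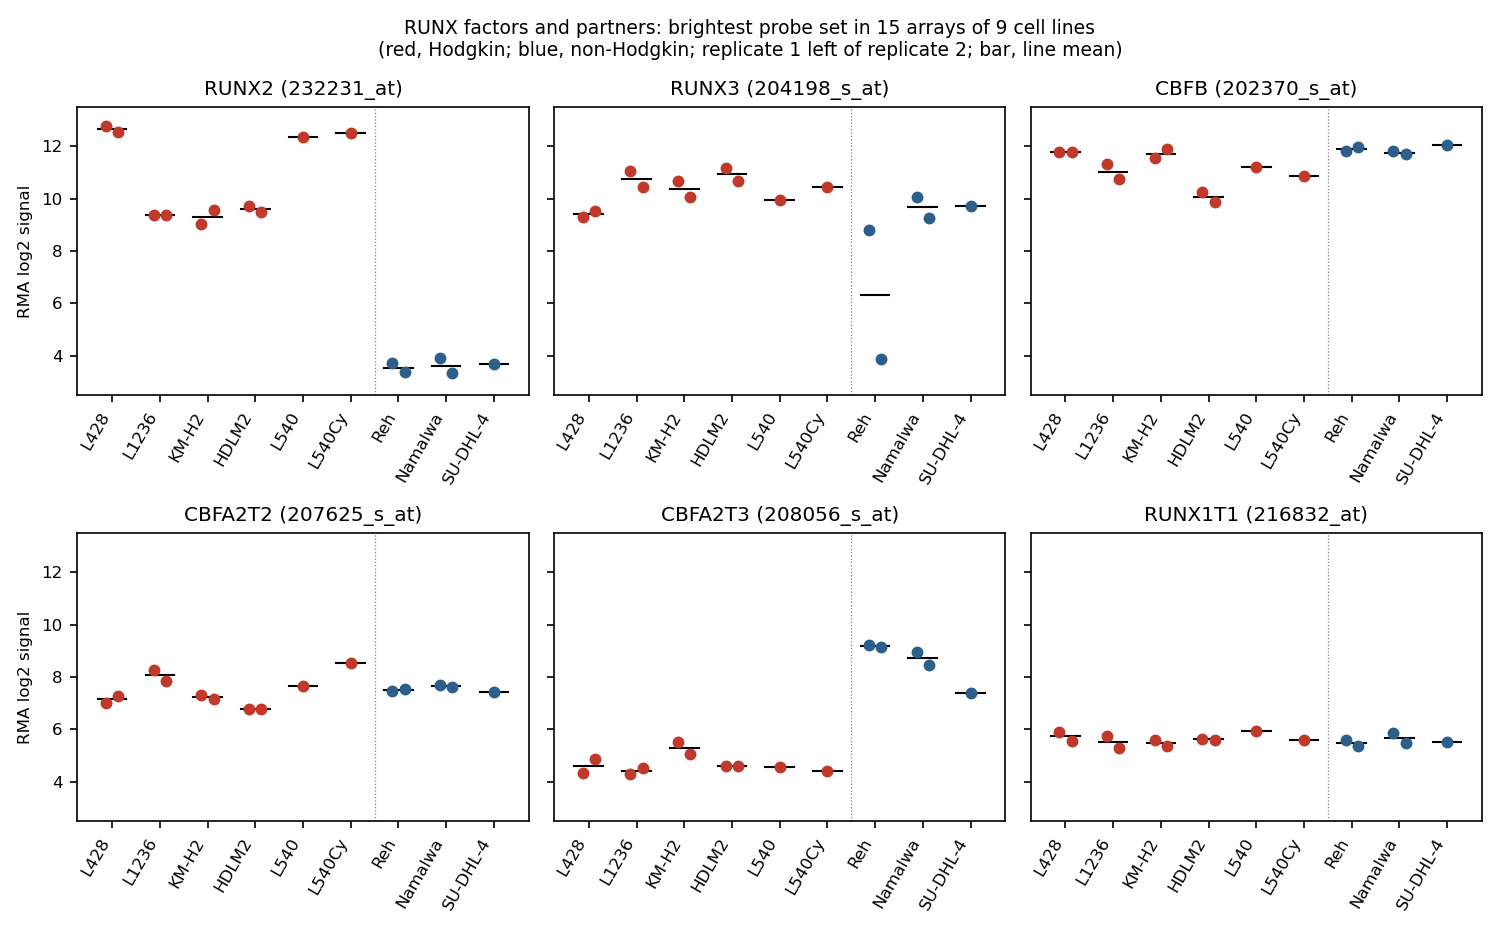
Log2 signal (vertical axis) of the brightest probe set of 6 genes in the 15 arrays, grouped by cell line (horizontal axis); red points are Hodgkin arrays, blue points are non-Hodgkin arrays and bars are line means. RUNX2 is between 9.02 and 12.8 in the Hodgkin arrays and between 3.33 and 3.91 in the others, CBFA2T3 is the reverse, and Reh replicate 2 is the single low RUNX3 array.

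RUNX2, the factor known from bone formation, was read by its brightest probe set 232231_at at 12.78 and 12.55 log2 in L428, 12.34 in L540 and 12.52 in L540Cy. The other Hodgkin lines were lower, at 9.71 and 9.50 in HDLM2, 9.38 and 9.38 in L1236, and 9.02 and 9.58 in KM-H2. Signals were 3.73 and 3.36 in Reh, 3.91 and 3.33 in Namalwa and 3.69 in SU-DHL-4. Every Hodgkin array thus exceeded every non-Hodgkin array, and the non-Hodgkin signals lay below the array medians. In a bulk culture, fewer expressing cells and less RNA per cell cannot be told apart. The Hodgkin lines averaged 10.68 ± 1.71 log2 (SD, n = 5) and the non-Hodgkin lines 3.62 ± 0.075 log2 (SD, n = 3). Probe set 232231_at was the brightest only through its Hodgkin signals. In the non-Hodgkin lines it was the dimmest of the 6, the others averaging 3.79 (236859_at) to 6.29 log2 (221282_x_at). The choice of probe set thus drew on the group difference tested here. The difference was 7.06 log2 (SE 0.92, 95% interval 4.90 to 9.22, limma adjusted p = 0.0163), which ranked 6 among the rises of 19775 genes. The size barely moved when a non-Hodgkin line was left out, but the call was lost: the difference was 7.02 log2 without Reh (limma adjusted p = 0.0537), 7.06 without Namalwa (0.0661) and 7.10 without SU-DHL-4 (0.0598).

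The 9 line means of RUNX2 fell into 3 levels. L428 (12.67), L540Cy (12.52) and L540 (12.34) did not differ beyond their spread, and neither did HDLM2 (9.61), L1236 (9.38) and KM-H2 (9.30), nor SU-DHL-4 (3.69), Namalwa (3.62) and Reh (3.54). The step from L540 to HDLM2 was 2.73 log2 (95% interval 2.04 to 3.42), and the step from KM-H2 to SU-DHL-4 was 5.61 log2 (4.93 to 6.30). These intervals come from a fit with 1 mean per line, whose spread is that of the 6 lines with 2 arrays, and the same spread was taken for L540, L540Cy and SU-DHL-4. The high level of RUNX2 was thus shared by L428, of B cell origin, and L540, of T cell origin.

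The other 5 RUNX2 probe sets did not show the difference between the groups. Their differences ran from -0.14 log2 at 221283_at to 0.32 log2 at 216994_s_at, with none called. Over the 15 arrays they stayed within 6.03 to 6.93 log2 (221282_x_at), 5.04 to 5.86 (221283_at), 4.43 to 5.32 (236858_s_at), 4.05 to 5.34 (216994_s_at) and 3.56 to 4.07 (236859_at). The lines of the upper RUNX2 level were also the highest at 216994_s_at, though all arrays there lay below the array medians. It gave 4.98 and 5.34 log2 in L428, 4.96 in L540 and 4.73 in L540Cy against 4.05 to 4.38 in the other 11 arrays. At 221282_x_at the same lines gave 6.65 and 6.93 in L428, 6.76 in L540 and 6.86 in L540Cy, next to 6.68 and 6.13 in HDLM2 and at most 6.35 elsewhere. Both probe sets differed among the 5 Hodgkin lines (limma F test, adjusted p = 0.00377 and 0.0369), as did 232231_at, and the other 3 were not called. The position of each probe set along RUNX2 was not analysed here. The mean over all 6 probe sets differed by 1.27 log2 between the groups and was not called (limma adjusted p = 0.0601).

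**Figure D3:**
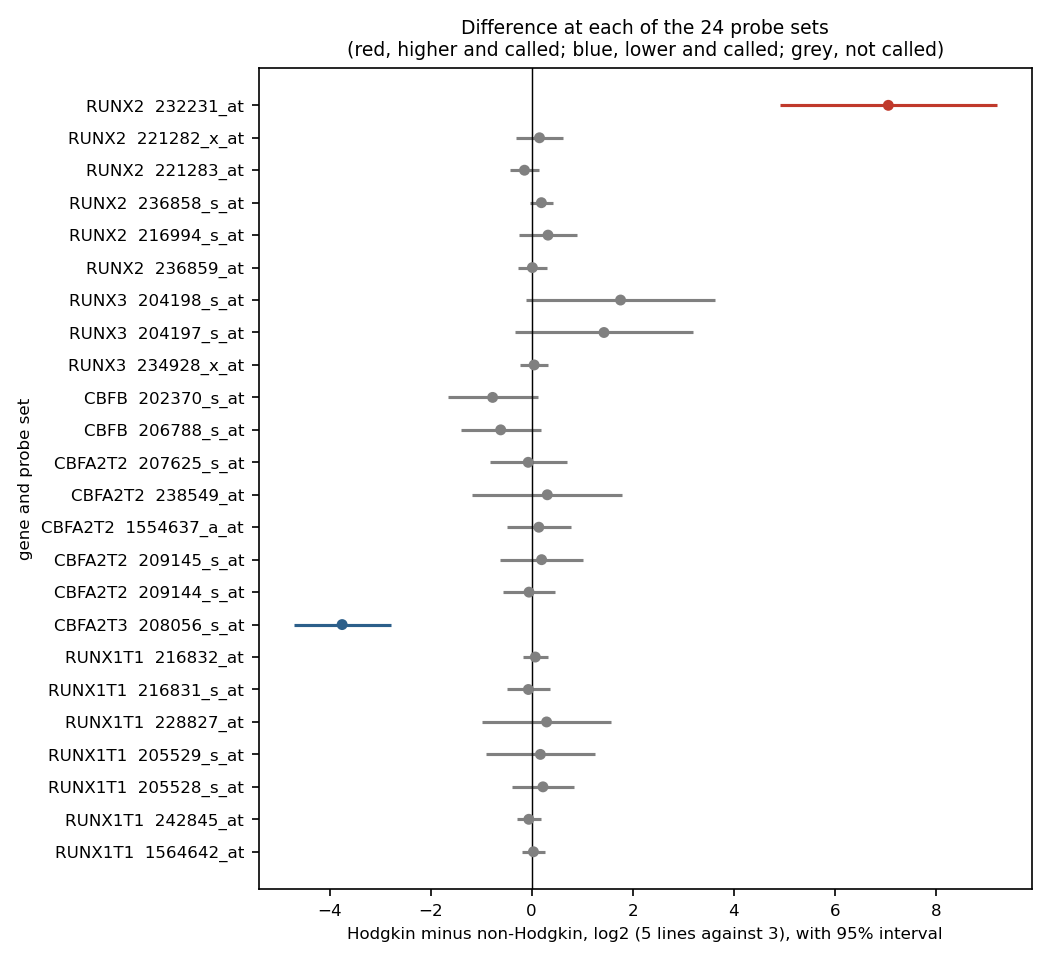
Difference between the 5 Hodgkin and 3 non-Hodgkin lines (horizontal axis, log2) with its 95% interval for each of the 24 probe sets, listed by gene; red is called higher, blue called lower and grey not called. Probe set 232231_at of RUNX2 stands at 7.06 log2 and that of CBFA2T3 at -3.75 log2, while the other 5 RUNX2 probe sets stay between -0.14 and 0.32 log2.

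When each of the 24 probe sets was tested separately, adjusted over all 41091, 2 were called: 232231_at of RUNX2 (higher, limma adjusted p = 0.0173) and 208056_s_at of CBFA2T3 (lower, 0.0087). Of all probe sets, 0.608% were called higher and 0.591% lower.

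RUNX3, the RUNX factor of cytotoxic T cells, was high in most lines of both groups. Its brightest probe set 204198_s_at read 11.16 and 10.69 log2 in HDLM2, 11.05 and 10.46 in L1236, 10.66 and 10.07 in KM-H2, 9.31 and 9.53 in L428, 9.95 in L540 and 10.44 in L540Cy. Namalwa gave 10.08 and 9.27, SU-DHL-4 gave 9.72, and Reh gave 8.79 and 3.86. The groups overlapped, and only Reh replicate 2 was far below all other arrays. Hodgkin lines averaged 10.33 ± 0.59 log2 (SD, n = 5) and non-Hodgkin lines 8.57 ± 1.94 (SD, n = 3). The difference of 1.76 log2 (SE 0.81, 95% interval -0.13 to 3.65) was not called (limma adjusted p = 0.385); it was 2.58 log2 without Reh replicate 1 (0.456) and 0.64 log2 without the Reh line (0.529).

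The line tests of RUNX3 depended on Reh replicate 1, through the spread that all lines share in the fit. The Reh pair had an SD of 3.49 log2, and the Hodgkin signals are the same with and without that array. With all arrays, RUNX3 was called neither among the 5 Hodgkin lines (limma F test, adjusted p = 0.873) nor among the 3 non-Hodgkin lines (0.119). Without Reh replicate 1 it was called among the Hodgkin lines (limma F test, adjusted p = 0.0216). Reh then rested on replicate 2 alone, with its spread taken from the other lines. Replicate 1 alone would put Reh at 8.79 log2, and which array stands for the line was not tested. In the fit without Reh replicate 1, L428 (9.42 log2) was the lowest of the other lines. The step from it down to Reh (3.86) was 5.56 log2 (95% interval 4.64 to 6.48). None of the other neighbours in the order differed beyond their spread. From the top that order was HDLM2, L1236, L540Cy, KM-H2, L540, SU-DHL-4, Namalwa, L428 and Reh. The second probe set 204197_s_at also had its lowest value in Reh replicate 2, at 5.04 log2 against 8.35 in Reh replicate 1 and 8.93 to 10.97 elsewhere, and the third, 234928_x_at, stayed between 6.35 and 6.92 in all arrays.

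CBFB, the subunit that pairs with all RUNX factors, was bright everywhere, and HDLM2 was its lowest line. Probe set 202370_s_at read 10.26 and 9.88 log2 in HDLM2, 11.54 and 11.90 in KM-H2, 11.30 and 10.75 in L1236, 11.77 and 11.79 in L428, 11.22 in L540 and 10.85 in L540Cy. The 5 non-Hodgkin arrays ranged from 11.69 to 12.05 log2 with a median of 11.83. The groups overlapped through L428 and KM-H2. Hodgkin lines averaged 11.13 ± 0.69 log2 (SD, n = 5) and non-Hodgkin lines 11.90 ± 0.14 (SD, n = 3), a difference of -0.77 log2 (SE 0.38, 95% interval -1.66 to 0.12) that was not called (limma adjusted p = 0.423).

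Among the Hodgkin lines the CBFB signal did differ (limma F test, adjusted p = 0.000619). The step from L540Cy (10.85) to HDLM2 (10.07) was 0.78 log2 (95% interval 0.18 to 1.39), and it was the only step between neighbours whose interval left out 0. The second CBFB probe set, 206788_s_at, also had its lowest arrays in HDLM2 (7.63 and 7.78 log2) against 8.0 to 9.54 in the rest, and it too differed among the Hodgkin lines (adjusted p = 0.0489).

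CBFA2T3, an ETO family corepressor known from haematopoietic progenitors, was the member that fell. Its single probe set 208056_s_at read 9.22 and 9.15 log2 in Reh, 8.97 and 8.48 in Namalwa and 7.38 in SU-DHL-4. Hodgkin arrays ranged from 4.27 to 5.53 log2 with a median of 4.58, and the 2 highest were those of KM-H2 at 5.53 and 5.07. No Hodgkin array reached the lowest non-Hodgkin array. Hodgkin lines averaged 4.68 ± 0.36 log2 (SD, n = 5) and non-Hodgkin lines 8.43 ± 0.94 (SD, n = 3). CBFA2T3 fell by 3.75 log2 in the Hodgkin lines (SE 0.41, 95% interval -4.71 to -2.79, limma adjusted p = 0.00815), which ranked 66 among the falls of 19775 genes.

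The order of the lines for CBFA2T3 had steps within both groups, but by the F test with all arrays it was called only among the non-Hodgkin lines. The intervals between neighbours are not adjusted for their number. Reh (9.18) and Namalwa (8.72) did not differ beyond their spread, SU-DHL-4 (7.38) lay 1.35 log2 lower than Namalwa (95% interval 0.68 to 2.01), and KM-H2 (5.30) lay 2.08 log2 below SU-DHL-4 (1.41 to 2.74). A further step of 0.70 log2 (0.16 to 1.25) led to HDLM2 (4.60), L428 (4.59), L540 (4.57), L540Cy (4.42) and L1236 (4.40), which did not differ beyond their spread. The summed precursor B cell markers, high in Reh and Namalwa through partly different genes, are also lower in SU-DHL-4. Their part in this order was not tested. CBFA2T3 was the only member called among the 3 non-Hodgkin lines with all arrays (limma F test, adjusted p = 0.00553), where 19.2% of all genes were called. Among the 5 Hodgkin lines it fell just short of a call (limma F test, adjusted p = 0.0573), which does not show that these lines were alike.

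CBFA2T2, a corepressor of the same family, varied from line to line and not between the groups. Probe set 207625_s_at read 8.54 log2 in L540Cy and 7.65 in L540, 8.27 and 7.85 in L1236, 7.31 and 7.17 in KM-H2, 7.0 and 7.28 in L428, and 6.78 and 6.78 in HDLM2. The 5 non-Hodgkin arrays stayed between 7.42 and 7.71 log2, inside the Hodgkin range. The Hodgkin lines averaged 7.46 ± 0.59 log2 (SD, n = 5) and the others 7.53 ± 0.12 (SD, n = 3). The difference of -0.07 log2 (SE 0.33, 95% interval -0.83 to 0.70) was not called (limma adjusted p = 0.943), and its sign turned with the choice of probe set.

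All 5 CBFA2T2 probe sets were called among the 5 Hodgkin lines (limma F test, adjusted p from 0.000619 at 207625_s_at to 0.0154 at 1554637_a_at). Each had its highest array in L540Cy and its lowest Hodgkin array in HDLM2. At 238549_at, for example, L540Cy read 9.42 log2, L1236 read 8.70 and 8.59, and HDLM2 read 6.07 and 5.96. On the brightest probe set the step from L1236 (8.06) to Namalwa (7.65) was 0.41 log2 (95% interval 0.01 to 0.80), and no other pair of neighbours differed beyond its spread. L540Cy exceeded L540 by 0.89 log2 at the brightest probe set (SE 0.25) without being called (limma adjusted p = 0.137), with 1 array of each. No member was called between L540Cy and L540, where 1.49% of all genes were called, and 1 of 6 members had an unadjusted p under 0.05.

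RUNX1T1, which encodes ETO itself, stood out in KM-H2 at 3 of its 7 probe sets. The brightest of its 7 probe sets, 216832_at, stayed between 5.29 and 5.95 log2 in all 15 arrays, and its difference between the groups was 0.07 log2 (SE 0.11, 95% interval -0.17 to 0.32, limma adjusted p = 0.787). Probe set 228827_at read 6.72 and 5.62 log2 in KM-H2 and 3.75 to 4.42 in the other 13 arrays. At 205529_s_at the KM-H2 arrays read 5.96 and 5.32 against 3.55 to 4.28, and at 205528_s_at they read 5.02 and 4.58 against 3.62 to 3.92. Both KM-H2 arrays were thus above every other array at 3 of the 7 probe sets. The signals were dim beside the array medians of 5.501 to 5.568 log2. Of these 3 probe sets, both KM-H2 arrays passed the medians at 228827_at, replicate 1 alone at 205529_s_at and neither at 205528_s_at.

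These 3 RUNX1T1 probe sets differed among the Hodgkin lines (limma F test, adjusted p = 0.000519, 0.000817 and 0.00203). The step from KM-H2 down to the next line was 1.89 log2 at 228827_at (95% interval 1.23 to 2.54), 1.45 at 205529_s_at (0.73 to 2.18) and 0.95 at 205528_s_at (0.56 to 1.33). The probe sets 216832_at, 216831_s_at, 242845_at and 1564642_at were not called. At 216831_s_at the highest array was Namalwa replicate 2 at 5.67 log2, with 4.07 in Namalwa replicate 1 and 4.94 in both KM-H2 arrays.

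**Figure D4:**
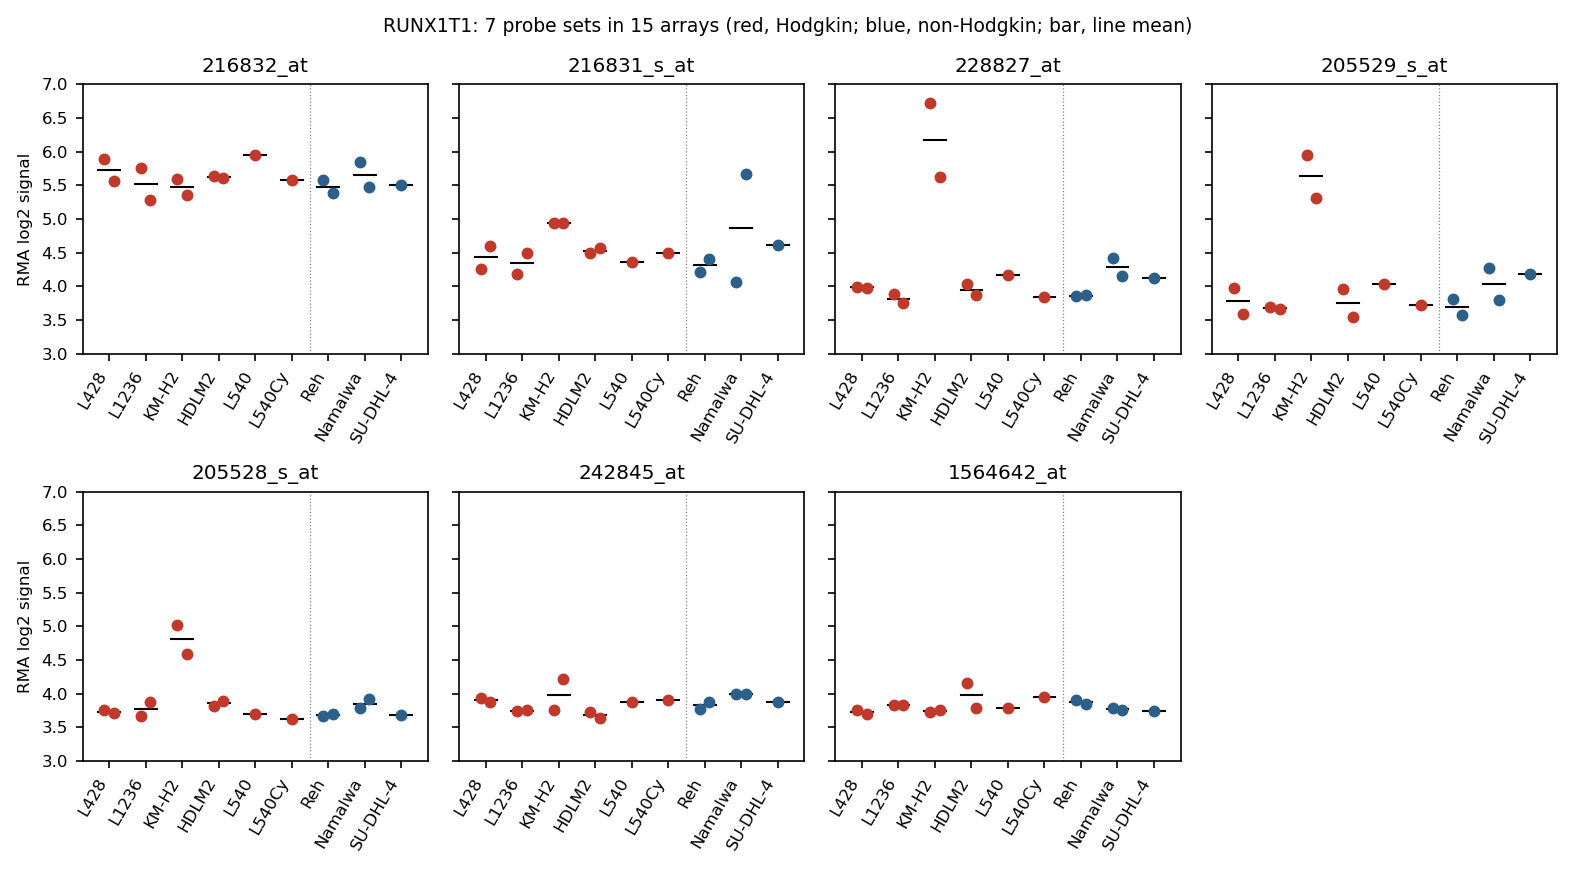
Log2 signal (vertical axis) of the 7 RUNX1T1 probe sets in the 15 arrays, grouped by cell line (horizontal axis); red points are Hodgkin arrays, blue points non-Hodgkin arrays and bars line means. KM-H2 stands above all other arrays at 228827_at, 205529_s_at and 205528_s_at, and the brightest probe set 216832_at is level.

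Counted over genes, RUNX2, CBFB and CBFA2T2 were called among the 5 Hodgkin lines, 3 of 6 members, where 45.3% of all genes were called. The RUNX2 test there gave a limma adjusted p of 2.63e-06. Over probe sets the count was 13 of 24, against 39.2% of all probe sets: 3 of RUNX2, 2 of CBFB, 5 of CBFA2T2 and 3 of RUNX1T1. Without Reh replicate 1, RUNX3 joined the genes.

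The Hodgkin lines of B cell origin were also set against the non-Hodgkin lines, to compare B cell lines with B cell lines. CBFA2T3 was called lower, by a difference of -3.66 log2 (SE 0.49, 95% interval -4.84 to -2.49, limma adjusted p = 0.0326), where 0.344% of all genes were called lower. The call was lost when L428, L1236, HDLM2, L540, Reh or Namalwa was left out, with the difference between -4.19 and -3.28 log2 over all alternatives. RUNX2 differed by 6.83 log2 (SE 1.09, 95% interval 4.21 to 9.46) and was not called (adjusted p = 0.0565), where 0.571% of all genes were called higher; it was called in 4 of 29 alternatives: with L540 and L540Cy as 2 lines (0.0295), with genes of a mean under 6 log2 left out (0.0301), without KM-H2 replicate 1 (0.0471) and without Reh replicate 2 (0.0443). RUNX3 differed by 1.61 log2 and was not called (adjusted p = 0.528); it was 2.43 log2 without Reh replicate 1 (0.609) and 0.49 log2 without the Reh line (0.669). CBFB (-0.39 log2), CBFA2T2 (-0.05) and RUNX1T1 (0.03) were not called.

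Between the Hodgkin lines of T cell origin (HDLM2 and L540) and those of B cell origin, 0 of 6 members were called by limma, where 0.197% of all genes were. One member, CBFB, had an unadjusted p under 0.05 (0.0313, adjusted 0.592), with a difference of -0.95 log2 (SE 0.35, 95% interval -1.79 to -0.12). The differences were 0.57 log2 for RUNX2 (95% interval -2.37 to 3.50), 0.38 for RUNX3 (-2.20 to 2.96), -0.22 for CBFA2T3 (-1.53 to 1.10), -0.04 for CBFA2T2 (-1.10 to 1.01) and 0.12 for RUNX1T1 (-0.20 to 0.44). With 2 lines against 3, these intervals leave room for differences of over 2 log2 in RUNX2 and RUNX3.

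Other genes of the RUNX pathway were read from 4 lists. Of 21 listed RUNX cofactors, 18 were measured and 0 were called by limma between the groups; 3 had an unadjusted p under 0.05, and the median difference was -0.01 log2. Over all genes, 14.2% had an unadjusted p under 0.05 and the median difference was -0.02 log2. The largest differences were those of HIPK2, a kinase known to phosphorylate RUNX1, at 2.83 log2 (adjusted p = 0.348) and YAP1, a coactivator that binds RUNX proteins, at 1.75 log2 (0.49).

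Of 26 transcription factors that share sites or complexes with RUNX, all were measured, 1 was called higher and 1 lower, 11 had an unadjusted p under 0.05, and the median difference was -0.88 log2. GATA3, the T helper cell factor that also served as a Hodgkin marker, differed by 6.53 log2 (SE 0.70, limma adjusted p = 0.00743), and SPI1, the ETS factor PU.1, fell by 2.44 log2 (SE 0.17, adjusted p = 0.00101). PAX5 and EBF1 are on this list and on the B cell marker list too. ETV6, the ETS factor fused to RUNX1 in some childhood leukaemias, was chosen after its values were seen. It read 4.60 and 4.70 log2 in Reh and 5.40 in SU-DHL-4, against 8.58 and 7.82 in Namalwa and 8.28 to 11.58 in the Hodgkin arrays, and it was not called (3.44 log2, adjusted p = 0.184).

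The third list held known RUNX targets in blood cells. Of 21 listed, 19 were measured, 0 were called by limma and 3 had an unadjusted p under 0.05, with a median difference of 0.12 log2. The largest differences were those of BLK, a B cell kinase, at -3.51 log2 (adjusted p = 0.135) and EOMES, a T-box factor of cytotoxic cells, at 3.16 log2 (0.166). Of 15 skeletal genes known as RUNX2 targets, 13 were measured, 0 were called and 0 had an unadjusted p under 0.05, with a median difference of -0.06 log2. SPP1, which encodes osteopontin, differed by 1.04 log2 (adjusted p = 0.707) and MMP9, a matrix protease, by 0.99 log2 (0.599).

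The genes most like 3 of the members in their pattern over the 8 lines of origin were picked by Pearson's r among 4820 genes that spanned at least 2 log2. The lines share their group, so a high r also reflects the difference between groups, and the values are descriptions. For RUNX2 they were STAT5A, a cytokine signalling factor (r = 0.974, Spearman's rho = 0.905), CELSR3, a cadherin receptor (0.968, 0.976), and STX11, a syntaxin of granule release (0.961, 0.929). For CBFA2T3 they were MIR181A2HG, a microRNA host gene (0.992, 0.905), the zinc finger gene ZNF439 (0.990, 0.833) and TET1, an enzyme that oxidises methylated cytosine (0.985, 0.976). For RUNX3 they were KLHL9 (0.965, 0.810), RIOX2 (0.958, 0.786) and PI4K2A (0.943, 0.881). Without Reh replicate 1, among 5026 genes, they were KLHL9 (0.983, 0.810), RIOX2 (0.979, 0.786) and GOLIM4 (0.974, 0.714). There Reh rested on replicate 2 alone, whose RUNX3 signal was far below the other lines.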

How the data were processed

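Per the submitters' processing notes, the authors made the deposited log2 signals with RMA, which corrects background, normalizes arrays and summarises probes; its version is not given in the sources used here. Of 54675 probe sets, 62 controls, 1801 with several symbols and 11721 with none were left out; 41037 of the 41091 used matched RefSeq by Entrez identifier and 0 were renamed. Arrays of a line were averaged. limma 3.58.1 in R 4.3.3 (lmFit, eBayes, two-sided) gave all tests, with Benjamini-Hochberg adjustment over all features at 0.05, on 8 line means or, for lines, on 15 arrays with 1 mean per line. The fits were tested on simulated data. No filter was applied to dim probe sets, and the number of arrays limits the precision.

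No arrays were identical (0 pairs). The members and lists were chosen with earlier results of these data known. Named were all members and probe sets; from each list up to 3 called genes per direction, or otherwise the 2 with the largest difference; and the 3 genes most like RUNX2, RUNX3 and CBFA2T3. Alternatives changed the treatment of L540Cy, the block, the probe set, a filter at 6 log2, the scaling, the variance model and the lines or arrays left out. Chosen after seeing the data were the line tests of each probe set, the L540Cy comparison with other probe set choices and the likeness without Reh replicate 1. ETV6 is outside the naming rule and was also chosen after its values were seen. The remark that partly different precursor B cell markers were high in Reh and Namalwa was also made after their values were seen.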

Additional observations from a re-analysis of the deposited data

Results flagged for a closer look

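Within each probe set, the 5 Hodgkin line means and the 5 non-Hodgkin arrays were checked for a value whose gap to its neighbour, as a share of the group's range, passed Dixon's value of 0.71. Of 48 groups 9 passed. Chance gives about 1 in 20 for independent values, a rate that does not carry over here, since the 5 non-Hodgkin arrays come from 3 lines and probe sets of 1 gene share their source. KM-H2 stood above the other Hodgkin lines in RUNX1T1 at 228827_at (0.921), 205529_s_at (0.896) and 205528_s_at (0.83), and in CBFA2T3 (0.777). Reh replicate 2 stood below the other non-Hodgkin arrays in RUNX3 at 204198_s_at (0.793) and in CBFA2T2 at 209145_s_at (0.779). Namalwa replicate 2 stood below them in CBFA2T2 at 1554637_a_at (0.835) and 238549_at (0.736). L540 stood apart in RUNX3 at 234928_x_at (0.734), over a range of 0.34 log2.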

How the results depend on the processing

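Over its 32 alternatives RUNX2 stayed higher and was called in 28; over its 31, CBFA2T3 stayed lower and was called in 31, with adjusted p from 3.24e-06 to 0.0416. Averaged over its probe sets, RUNX2 differed by 1.27 log2 and was not called, 1 member was called between the groups and 5 among the Hodgkin lines. With a filter at 6 log2, which removes CBFA2T3, 1 member, 1 member probe set and 0 members among the non-Hodgkin lines were called. The CBFA2T2 difference turned to 0.038 log2 with L540 and L540Cy as 2 lines, 0.107 with averaged probe sets and 0.311 with the most variable one; leaving out 1 line or array it ran from -0.23 to 0.10. The genes called numbered 424 with L540 and L540Cy as 2 lines (then 2 members in the B cell derived comparison), 1074 with arrays and a random line, 178 without Reh replicate 1 and Namalwa replicate 2, and 147 to 399 leaving out 1 line or array, with 271 in the fit reported. In the 12 numbered arrays 571 genes were called with the replicate block and 691 without it, and 0 members among the non-Hodgkin lines in either (of these, 4 lines are Hodgkin and 2 non-Hodgkin). Among those Hodgkin lines 3 members were called with the block and 4 without; the one lost was CBFA2T3 (adjusted p = 0.0586 with, 0.0453 without). The block changed no other member's call. Replicate 1 minus replicate 2 correlated between lines at 0.144 to 0.355 in the 10 pairs without Namalwa and at -0.070 to 0.057 in the 5 pairs with it, and each line's difference correlated positively with the mean of the others (0.033 to 0.389), a hint of a shared effect from the data and not the design. Leaving out 1 line or array gave RUNX2 differences of 6.56 to 7.40 log2, 1 to 2 members and 1 to 2 member probe sets called between the groups, 0 to 2 members in the B cell derived comparison and 1 to 2 among the non-Hodgkin lines. Other causes were not tested. Signals near the array background are compressed by RMA, which limits differences from such levels.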
